A study of Mus musculus with 24 samples.

Results

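The response of mouse chondrocytes to IL-1β in the presence of dermal fibroblasts was measured after 72 h. It was read from 6 of the study's 24 libraries, chosen by their labels. Of these, 3 came from chondrocytes co-cultured with fibroblasts and given IL-1β at 10 ng/ml for 72 h, and 3 from the same co-culture without IL-1β at 72 h. All cells were primary and of wild-type genotype, and IL-1β was added 24 h after the chondrocytes had attached. The chondrocytes grew in the lower chamber of a transwell plate, whose porous membrane keeps the partner cells apart while secreted molecules pass, with primary dermal fibroblasts as the partner cells. The libraries are labelled as chondrocytes, and whether any RNA of the fibroblasts entered them was not tested. Which medium the co-cultures had is not stated in the labels. The other 18 libraries, 3 per group, were IL-1β-treated and untreated normal cultures (chondrocytes without fibroblasts) at 72 h, and treated and untreated co-cultures and normal cultures at 36 h.

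IL-1β is a cytokine that binds its receptor on chondrocytes and, through MYD88 and IRAK kinases, activates NF-kB and the MAP kinases that drive AP-1. In cartilage it is known for turning on inflammatory mediators and matrix-degrading enzymes and for turning off the genes of the cartilage matrix, such as type II collagen and aggrecan. It is used in culture as a model of the inflammatory side of osteoarthritis.

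Expression was given as FPKM, fragments per kilobase of gene scaled to the number of mapped fragments, for 17094 genes. The sums over genes were between 446867 and 504696 FPKM in the 6 libraries, and the read depth behind them is unknown. A gene was tested if it reached 1 FPKM in at least 3 of the 24 libraries, which 12178 genes did. Changes are differences of log2(FPKM + 1) ± SE between group means (n = 3 each), treated minus untreated, and understate the change of genes near 0. A gene was called higher or lower at an adjusted p under 0.05 (limma, Benjamini-Hochberg over the 12178 genes). Whether the 3 libraries of a group represent separate animals or cultures is not said in the labels. The p-values therefore measure only the spread between these libraries, which may be technical. In bulk RNA, fewer cells of a type and less RNA per cell cannot be told apart. IL-1β raised 2249 genes (18.5% of those tested) and lowered 3729 (30.6%), so that 49.1% were called in one direction. The counts given below for gene lists are to be read against these shares. Genes near 0 without IL-1β could pass the filter through treated libraries alone. In lists that hold such genes, the count of rises and the median are not independent of the filter. With values rescaled to TPM the calls split into 1719 higher and 5460 lower. At least 2-fold changes were fewer, with 287 genes higher (2.36%) and 179 lower (1.47%), and the median change over all tested genes was -0.06.

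The chondrocyte label was set against its markers. Col2a1, the gene of type II collagen, had 222, 205 and 194 FPKM in treated co-cultures and 733, 804 and 795 FPKM in untreated co-cultures. Col1a1, which encodes type I collagen of skin and bone and is among the dermal fibroblast markers, had 1629, 1651 and 1611 FPKM in treated and 1962, 1988 and 2059 FPKM in untreated co-cultures. Type I collagen RNA was thus more abundant than type II collagen RNA, per length, in all 6 libraries, and Matn1, a matrilin of mature cartilage, was at or below 0.02 FPKM in each. Summed over 10 chondrocyte markers, FPKM were 287.9 to 331.6 in treated and 1045 to 1111 in untreated co-cultures, and all 9 tested markers fell. Over 15 dermal fibroblast markers the sums were 2843 to 2928 in treated and 3422 to 3587 in untreated co-cultures, and 5 rose and 9 fell. In normal cultures at 72 h, which held no fibroblasts, these sums were lower, at 2545 to 2750 treated and 3249 to 3380 untreated. The part of fibroblast RNA in the co-culture sums was not tested.

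Markers of other cells a cartilage digest could hold also differed between the groups. Of 12 tested skeletal muscle markers (13 listed) 11 rose, and their summed level was 123.5 to 162.3 FPKM in treated and 68.75 to 80.56 FPKM in untreated co-cultures; Pax7, which marks muscle stem cells, was at or below 0.01 FPKM. Of 12 tested macrophage and myeloid markers (15 listed) 2 rose and 8 fell, and their sum was 147.8 to 165.9 FPKM in treated and 112.9 to 126.1 FPKM in untreated co-cultures. The 2 that rose were Cd14, a lipopolysaccharide co-receptor, and Lyz2, a lysozyme, while Csf1r, the receptor of macrophage colony-stimulating factor, fell by 0.87. Of 10 listed neutrophil markers 3 were tested and rose, the antimicrobial genes Camp, S100a8 and S100a9. The list summed to 39.56 to 49.65 FPKM in treated and 1.74 to 2.3 FPKM in untreated co-cultures. Genes this low without IL-1β could pass the filter through treated libraries alone, so the rise of all 3 is not independent of the filter. Endothelial markers were low, with 8 of 10 under 1 FPKM in all 6 libraries. The part of these cells in the changes described below was not tested.

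The spread within the treated co-cultures (residual SD 0.119) was larger than within the untreated ones (0.0877), and the treated libraries departed from their group mean with gene length. For the shortest tercile of genes the median departures of treated replicates 1, 2 and 3 were -0.055, -0.024 and 0.081, and for the longest tercile 0.061, 0.02 and -0.076. The median IL-1β change was -0.02 in the shortest, -0.06 in the middle and -0.1 in the longest tercile. The part of gene length in single results was not tested.

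Promoter sequences of 6 of the most strongly raised genes are shown because they carry matches to the binding motifs of NF-kB or AP-1, the factors downstream of the IL-1 receptor. Each is the 120 bases before the annotated gene start, read 5′ to 3′ on the plus strand from RefSeq on build GRCm38.p6, with the motif match in capitals. The stretches lie at chr5:90891125-90891244 for Cxcl1, chr5:90903779-90903898 for Cxcl2, chr5:90785981-90786100 for Cxcl3, chr5:30012994-30013113 for Il6, chr9:7445702-7445821 for Mmp3 and chr9:7272394-7272513 for Mmp13.
Cxcl1: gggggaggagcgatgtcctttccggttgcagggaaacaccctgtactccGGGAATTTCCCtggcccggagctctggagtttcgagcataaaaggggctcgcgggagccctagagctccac
Cxcl2: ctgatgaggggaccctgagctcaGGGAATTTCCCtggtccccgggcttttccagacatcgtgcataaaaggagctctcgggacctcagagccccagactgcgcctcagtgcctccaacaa
Cxcl3: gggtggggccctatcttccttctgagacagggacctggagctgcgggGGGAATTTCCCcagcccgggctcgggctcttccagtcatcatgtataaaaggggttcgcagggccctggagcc
Il6: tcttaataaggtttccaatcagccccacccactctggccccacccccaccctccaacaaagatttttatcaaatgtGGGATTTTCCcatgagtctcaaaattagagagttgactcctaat
Mmp3: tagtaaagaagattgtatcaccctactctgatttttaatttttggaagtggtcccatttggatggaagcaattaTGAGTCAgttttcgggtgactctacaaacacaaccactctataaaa
Mmp13: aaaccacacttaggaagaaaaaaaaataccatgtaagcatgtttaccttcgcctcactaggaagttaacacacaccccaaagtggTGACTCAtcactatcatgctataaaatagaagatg

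In the 3 CXC chemokine promoters the NF-kB consensus matched on both strands with an offset of 1 base, so the capitals span both matches, which began 71, 97 and 73 bases before the start of Cxcl1, Cxcl2 and Cxcl3. The match in Il6 began 44 bases before the start. The AP-1 motif TGANTCA, which reads alike on both strands, began 46 bases before the start of Mmp3 and 35 before that of Mmp13. Both strands were searched in windows of 250 bases before to 50 bases after the start. Of 32851 such RefSeq windows 4.51% held the NF-kB consensus and 7.81% held TGANTCA. Of the 15 genes with the largest rise 10 had a window, and 4 of these held the NF-kB consensus and 3 held TGANTCA. The NF-kB matches were those of Il6 and the 3 CXC chemokines, related neighbours on chromosome 5 with the same matched letters, so these are not separate cases. The TGANTCA matches were in Mmp3, Mmp13 and Il6, where it began 249 bases before the start, outside the printed stretch. A match describes the letters and does not show that a factor was bound.

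Secreted inflammatory messengers rose, chemokines with the higher median. Chemokines recruit leukocytes, and 18 of 20 tested members were higher and 1 lower, with a median of 1.72 (27 listed). Cxcl5, a neutrophil attractant, had 2855, 2859 and 2909 FPKM in treated co-cultures and 71.1, 65.9 and 76.8 FPKM in untreated co-cultures. Ccl2, a monocyte attractant, had 1579.8, 1561 and 1825 FPKM in treated and 43.8, 46.3 and 49.2 FPKM in untreated co-cultures, and Cxcl1 1007, 1016 and 1099.5 FPKM in treated and 25.8, 23.7 and 27.9 FPKM in untreated co-cultures. The changes of Cxcl5, Ccl2 and Cxcl1 were 5.32 ± 0.092, 5.12 ± 0.073 and 5.28 ± 0.075 (adjusted p at most 3.66e-22, limma with Benjamini-Hochberg). Cxcl2, Cxcl3 and Ccl5 rose by 5.40, 4.73 and 4.84. The exception was Cxcl12, a chemokine that retains blood progenitors in marrow, which fell to 122 ± 1.72 FPKM in treated co-cultures, against 171.6 ± 8.02 FPKM in untreated co-cultures (SD, n = 3).

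Among cytokines, 13 of 16 tested members were higher and 0 lower, with a median of 1.27 (23 listed). Il6, which drives acute phase responses, had 522, 470.1 and 544 FPKM in treated and 3.04, 2.40 and 3.18 FPKM in untreated co-cultures, a change of 7.05 ± 0.098. The other 2 IL-6 family members with large rises were Lif (95.7 ± 0.57 FPKM treated, 4.85 ± 0.36 FPKM untreated) and Il11 (29.3 ± 2.38 FPKM treated, 1.61 ± 0.17 FPKM untreated). Csf3, the neutrophil growth factor G-CSF, averaged 7.92 ± 1.04 FPKM in treated and 0.063 ± 0.021 FPKM in untreated co-cultures. Il1a, which acts on the same receptor as IL-1β, averaged 8.03 ± 0.79 FPKM in treated co-cultures and was listed at 0 in 2 of 3 untreated libraries. The filter limit given above applies to members this low without IL-1β, such as Csf3 and Il1a.

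**Figure D1:**
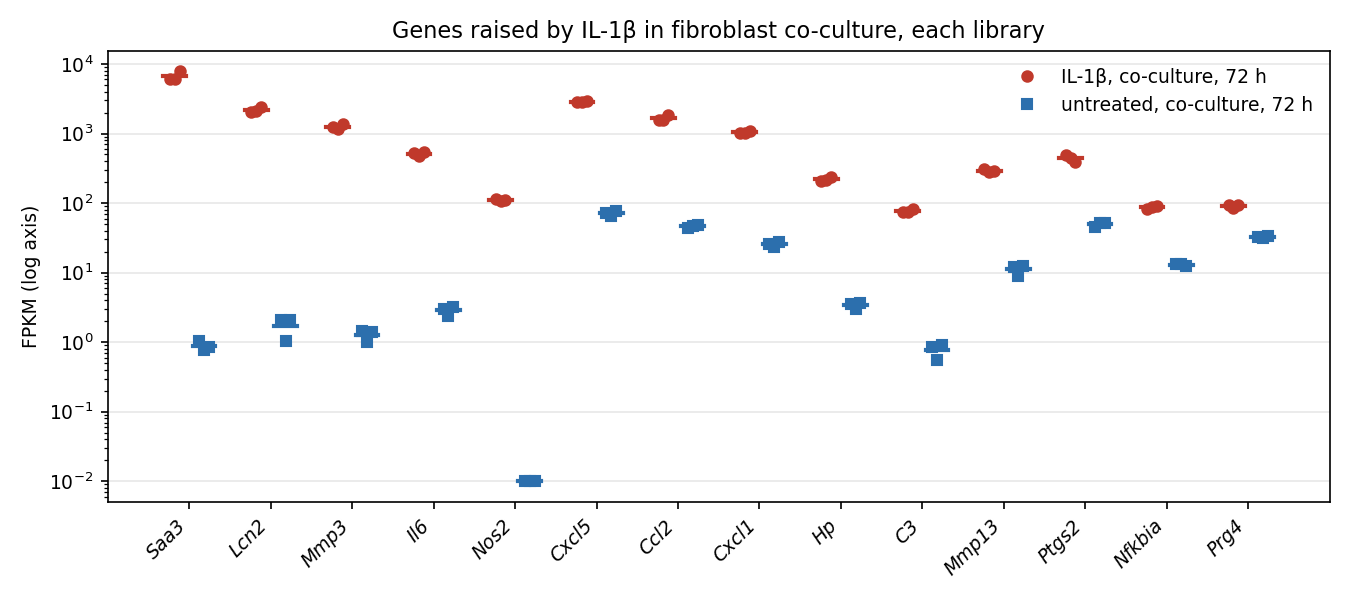
FPKM on a log axis of 14 genes that rose, one point per library, with treated co-cultures left of untreated co-cultures. Saa3 lies at 6152 to 7857 FPKM in treated and 0.76 to 1.03 FPKM in untreated co-cultures. Prg4 lies at 85.1 to 93.8 FPKM in treated and 31.4 to 33.4 FPKM in untreated co-cultures.

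Acute phase, nitric oxide and prostaglandin genes formed the group with the largest single changes; 20 of 24 tested members were higher and 2 lower, with a median of 1.68 (27 listed). Saa3, the local serum amyloid A of inflamed tissue, had 6166, 6152 and 7857 FPKM in treated co-cultures and 1.03, 0.76 and 0.86 FPKM in untreated co-cultures. That was the largest rise of all tested genes (11.79 ± 0.18, adjusted p = 6.91e-23, limma with Benjamini-Hochberg). Lcn2, which binds bacterial iron carriers, had 2020.1, 2079.9 and 2392 FPKM in treated and 2.09, 1.03 and 2.07 FPKM in untreated co-cultures, a change of 9.65 ± 0.12. Hp, which binds free haemoglobin, rose by 5.65. Nos2, the inducible nitric oxide synthase, had 113, 106 and 111 FPKM with IL-1β and 0.01 FPKM in each untreated library (6.78 ± 0.11). Ptgs2, the cyclooxygenase of inflammatory prostaglandin synthesis, had 495, 438 and 385 FPKM in treated and 46.0, 51.5 and 52.4 FPKM in untreated co-cultures (3.10 ± 0.16). The 2 members that fell were Hpgd, which degrades prostaglandins (-0.66), and Alox5ap, which assists leukotriene synthesis (-0.47).

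Complement genes moved in both directions, and 7 of 15 tested members were higher and 6 lower, with a median of 0.09 (19 listed). C3, the central component, had 73.9, 74.4 and 83.5 FPKM in treated and 0.84, 0.56 and 0.91 FPKM in untreated co-cultures and rose by 5.47. Cfb, the protease partner of C3 in the alternative pathway, rose by 3.16, and Serping1, the inhibitor of the C1 proteases, by 2.51. The C1 proteases themselves, C1s1 and C1ra, rose by 1.80 and 1.05. Masp1, a protease of the lectin pathway, fell by 0.93, and the receptors C3ar1 and C5ar1 fell by 0.58 and 0.72.

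In the IL-1 and NF-kB pathway most NF-kB genes rose. Of NF-kB subunits and feedback genes, 19 of 23 tested members were higher and 0 lower, with a median of 0.97 (24 listed). Nfkbia, the inhibitor IκBα, had 82.8, 86.8 and 90.1 FPKM in treated and 13.2, 13.4 and 12.6 FPKM in untreated co-cultures (2.64 ± 0.048). The RNase Zc3h12a, which degrades Il6 mRNA, rose by 3.49, the nuclear IκB protein gene Nfkbiz by 2.74 and the deubiquitinase A20 gene Tnfaip3 by 1.93. Of receptors and signal transducers, 6 of 14 tested members were higher and 2 lower, with a median of 0.02 (18 listed). With TPM scaling 5 of these were higher and 5 lower, so the list had no direction that held across scalings, and the 8 called of 14 are near the 49.1% of all tested genes. Il1rn, the receptor antagonist, fell to 31.1, 26.7 and 28.2 FPKM in treated co-cultures, against 127, 109 and 120.2 FPKM in untreated co-cultures (-2.01 ± 0.092, adjusted p = 2.4e-14, limma with Benjamini-Hochberg). Irak3, the inhibitory member of the IRAK family, rose by 1.49, and the co-receptor Il1rap by 0.64.

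Proteases that cut the cartilage matrix did not move as one group. Of matrix metalloproteinases, 6 of 15 tested members were higher and 4 lower, with a median of 0.11 (17 listed). Mmp3, stromelysin, had 1232, 1162 and 1355 FPKM in treated and 1.44, 0.99 and 1.42 FPKM in untreated co-cultures (9.10 ± 0.15). Mmp13, the main collagenase against type II collagen, had 304, 284 and 291 FPKM in treated and 12.2, 8.99 and 12.5 FPKM in untreated co-cultures (4.60 ± 0.14). Both were called higher (adjusted p at most 1.84e-17, limma with Benjamini-Hochberg). Mmp9 and Mmp12 rose by 2.41 and 1.32, whereas Mmp14, a membrane-bound enzyme that was the more abundant at 186 ± 5.03 FPKM treated and 241 ± 2.31 FPKM untreated, fell by 0.37.

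The ADAMTS proteases include the aggrecanases, and 5 of 11 tested members were higher and 4 lower, with a median of 0.06 (18 listed); with TPM scaling these were 4 and 5. Adamts4 had 8.02, 7.23 and 6.88 FPKM in treated and 4.37, 3.97 and 4.15 FPKM in untreated co-cultures and rose by 0.70 ± 0.053. The other aggrecanase, Adamts5, had 21.1, 19.7 and 17.6 FPKM in treated and 23.1, 23.6 and 22.8 FPKM in untreated co-cultures and fell by 0.24 ± 0.07 (adjusted p = 0.00612, limma with Benjamini-Hochberg). Without treated replicate 3 the change was -0.17 and was no longer called (adjusted p = 0.0528, limma with Benjamini-Hochberg). Adamts7, which cuts cartilage oligomeric matrix protein, showed the largest rise of the listed proteases of this family, at 1.90. Of protease inhibitors, 6 of 13 tested members were higher and 4 lower, with a median of 0.30 (17 listed). Timp3, the inhibitor of both aggrecanases, fell to 104, 92.5 and 83.5 FPKM in treated co-cultures, against 368, 376 and 352 FPKM in untreated co-cultures (-1.96 ± 0.084), while Timp1 rose by 0.87 to 1353 ± 179 FPKM. Reck, a membrane-anchored inhibitor, fell by 1.07. Serpine2, a serine protease inhibitor, rose by 1.04.

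Genes of the cartilage matrix fell more often than they rose, which also holds for all tested genes (30.6% lower and 18.5% higher). All 7 cartilage collagen genes were tested and fell, with a median of -1.04. Col2a1 fell by 1.91 ± 0.051, and Col9a1 and Col11a1, whose products sit on and in the type II fibrils, by 2.13 and 1.00. Of aggrecan and other noncollagenous matrix genes, 3 of 15 tested members were higher and 10 lower, with a median of -0.77 (22 listed). Acan, the large proteoglycan that holds water in cartilage, had 2.15, 1.55 and 1.12 FPKM in treated and 18.7, 20.0 and 20.6 FPKM in untreated co-cultures (-3.01 ± 0.13, adjusted p = 4.75e-15, limma with Benjamini-Hochberg). Comp had 17.0, 14.5 and 14.2 FPKM in treated and 91.3, 85.5 and 91.8 FPKM in untreated co-cultures, and Hapln1, the link protein that ties aggrecan to hyaluronan, fell by 1.41. The 3 that rose were Epyc, a small proteoglycan of growth cartilage (1.21), Chst11, a chondroitin sulfotransferase (1.02), and Vcan, the versican gene (0.30), which was not called with TPM scaling (adjusted p = 0.0587, limma with Benjamini-Hochberg).

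**Figure D2:**
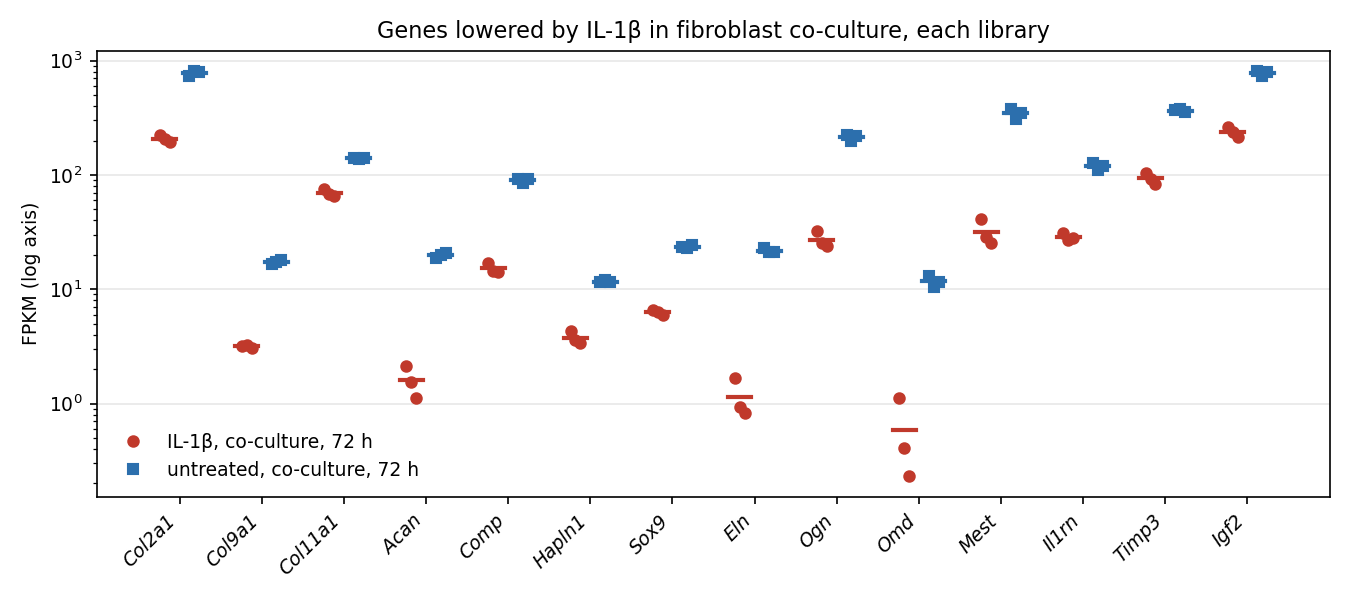
FPKM on a log axis of 14 genes that fell, one point per library, with treated co-cultures left of untreated co-cultures. Acan lies at 1.12 to 2.15 FPKM in treated and 18.7 to 20.6 FPKM in untreated co-cultures.

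Of skeletal transcription factors 4 of 22 tested members were higher and 14 lower, with a median of -0.42 (26 listed). Of all tested genes 18.5% were higher and 30.6% lower. Sox9, the factor that drives type II collagen and aggrecan, had 6.62, 6.33 and 5.99 FPKM in treated and 23.6, 22.8 and 24.2 FPKM in untreated co-cultures (-1.74 ± 0.088). Sox6, its partner, fell by 1.11, whereas Sox5, the other partner, had 3.65 ± 0.24 FPKM in treated and 3.73 ± 0.17 FPKM in untreated co-cultures and was not called (adjusted p = 0.818, limma with Benjamini-Hochberg). Pitx1 and Barx1, homeobox genes of limb and joint, fell by 1.25 and 1.20. Of hypertrophy and mineralization genes, 4 of 14 tested members were higher and 7 lower, with a median of -0.33 (18 listed). Col10a1, the collagen of hypertrophic cartilage, was low and averaged 2.27 ± 0.11 FPKM in treated and 5.37 ± 0.29 FPKM in untreated co-cultures. Mgp, an inhibitor of mineralization, fell by 1.08, and Ank, a pyrophosphate transporter, by 1.35, while Alpl, the alkaline phosphatase that removes pyrophosphate, and the phosphoprotein gene Spp1 rose by 1.31 and 1.18.

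Small leucine-rich proteoglycans, which coat collagen fibrils, split by gene, and 3 of 12 tested members were higher and 6 lower, with a median of -0.29 (14 listed); with median-of-ratios scaling 5 were higher and 6 lower. Dcn, decorin, had 787, 761 and 786 FPKM in treated and 104, 83.7 and 95.1 FPKM in untreated co-cultures, and Lum, lumican, had 319, 304 and 326 FPKM in treated and 98.7, 78.1 and 99.2 FPKM in untreated co-cultures. Both rose, by 3.04 ± 0.062 and 1.78 ± 0.088. Omd and Ogn, osteomodulin and osteoglycin, went the other way: Omd had 1.11, 0.41 and 0.23 FPKM in treated and 13.2, 10.5 and 11.6 FPKM in untreated co-cultures, and Ogn had 32.1, 25.2 and 23.6 FPKM in treated and 225, 197 and 218 FPKM in untreated co-cultures. Their changes were -3.05 ± 0.16 and -2.95 ± 0.12, among the 15 largest falls. Aspn and Fmod fell by 2.41 and 1.23, and Bgn, the most abundant member, was not called at 1945 ± 25.5 FPKM treated and 1856 ± 31.3 FPKM untreated (it was called higher with median-of-ratios scaling, adjusted p = 0.0348, limma with Benjamini-Hochberg).

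The rest of the matrix changed by component. Of collagens outside cartilage fibrils, 4 of 21 tested members were higher and 11 lower, with a median of -0.30 (22 listed). Col6a3 and Col6a2, which build the pericellular network, fell by 1.50 and 0.96, Col8a2 fell by 1.53, and Col5a3 rose by 1.29. Of elastic fibre and matricellular genes, 5 of 28 tested members were higher and 14 lower, with a median of -0.18 (28 listed). Eln, elastin, had 1.67, 0.93 and 0.82 FPKM in treated and 22.8, 21.2 and 21.0 FPKM in untreated co-cultures and fell by 3.43. Ccn3, an anti-proliferative matricellular protein, fell by 3.06, and tenascin C, Tnc, rose to 277 ± 20.0 FPKM in treated co-cultures, against 131 ± 0.98 FPKM in untreated co-cultures. Of 24 tested genes of collagen modification and cross-linking 10 rose and 8 fell, but with TPM scaling 6 were higher and 10 lower and with median-of-ratios scaling 12 were higher and 6 lower. Loxl2 and Loxl4, both lysyl oxidase-like cross-linkers, moved apart, by 1.25 and -1.55.

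Genes of the joint surface rose, led by lubricin; of this list 9 of 14 tested members were higher and 1 lower, with a median of 0.46 (15 listed). Prg4, the boundary lubricant made by superficial zone chondrocytes and synovial cells, had 93.3, 85.1 and 93.8 FPKM in treated and 32.4, 31.4 and 33.4 FPKM in untreated co-cultures (1.46 ± 0.049, adjusted p = 1.17e-16, limma with Benjamini-Hochberg). Cemip, which breaks down hyaluronan, rose by 1.39, Pdpn, podoplanin, by 1.05 and the joint-forming ligand Gdf5 by 1.00. The hyaluronan synthase Has1 rose by 0.83, and the more abundant Has2 was not called (33.2 ± 4.02 FPKM treated, 31.2 ± 0.75 FPKM untreated). The member that fell was Erg, an ETS factor of articular cartilage, by 1.46.

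**Figure D3:**
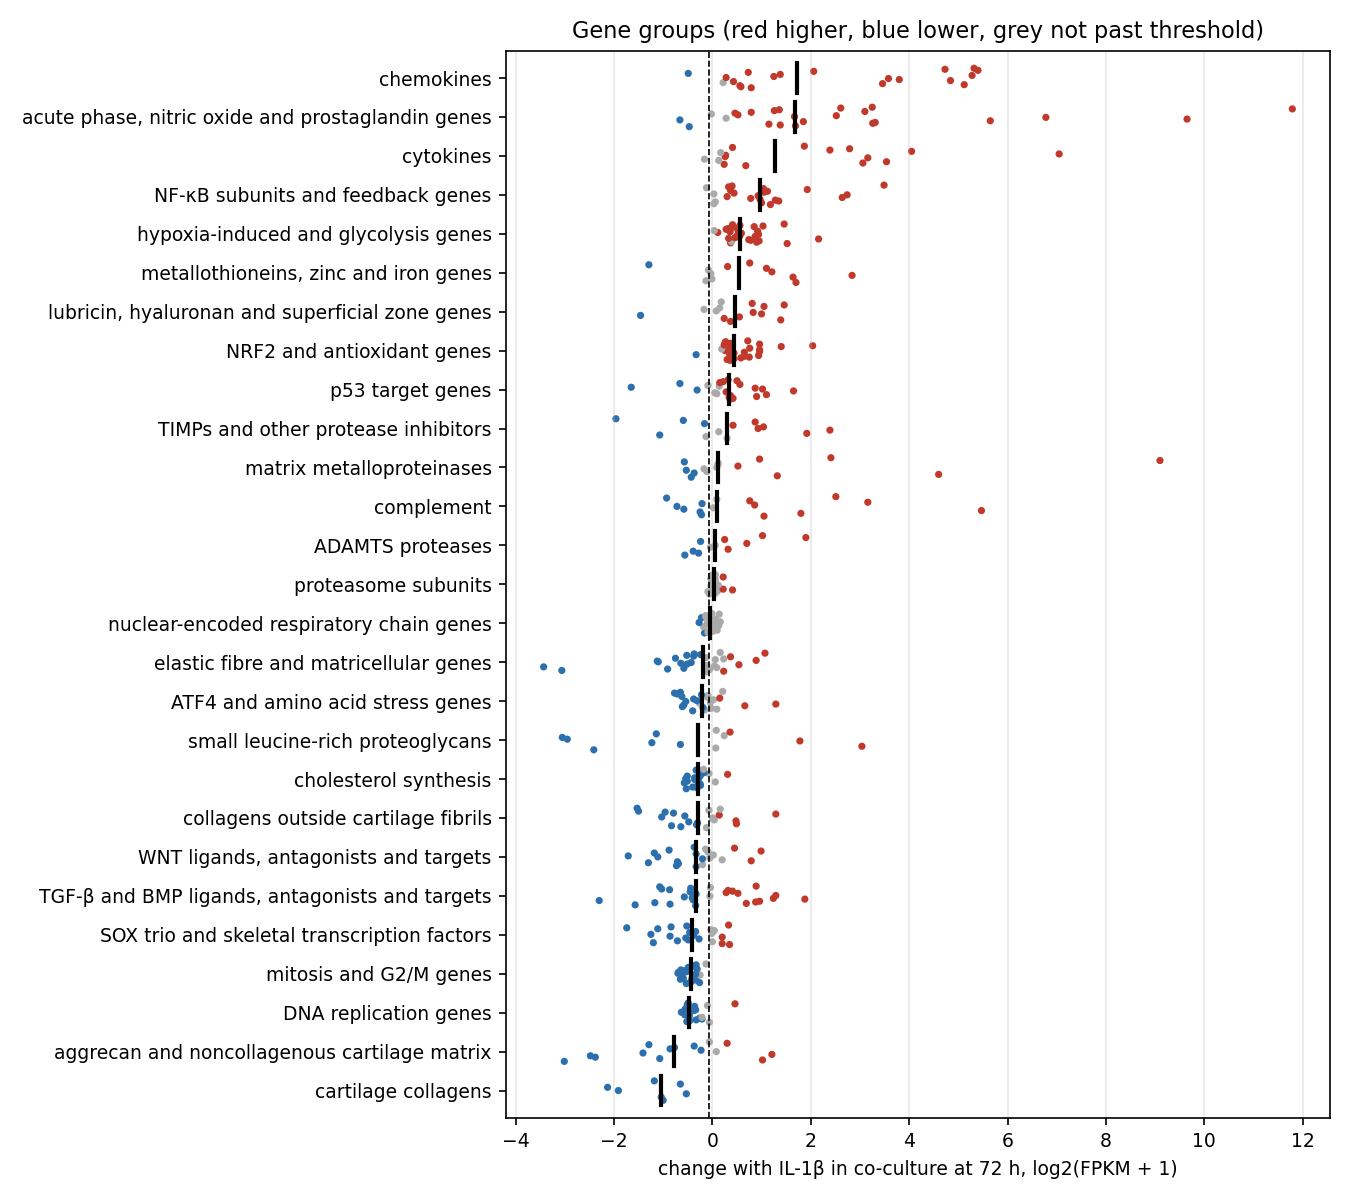
Change with IL-1β in co-culture at 72 h, as the difference of log2(FPKM + 1) of treated minus untreated, for each tested member of 27 gene lists (red higher, blue lower, grey not called; black bar, list median; dashed line, median of all tested genes). List medians lie between 1.72 for chemokines and -1.04 for cartilage collagens, against -0.06 for all genes.

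Growth factor axes changed at ligands, receptors and inhibitors. In the TGF-β and BMP list 11 of 28 tested members were higher and 15 lower, with a median of -0.34 (30 listed). Bmp4 fell by 1.57, Tgfb3 by 1.03, Gdf10 by 2.30 and the receptor gene Tgfbr2 by 1.07. The BMP antagonist Grem1 and the activin subunit Inhba rose by 1.88 and 1.29. In the WNT list 3 of 21 tested members were higher and 12 lower, with a median of -0.33 (29 listed). The secreted WNT inhibitors Sfrp2 and Sfrp1 fell by 1.71 and 1.11, and the ligand Wnt11 rose by 0.99.

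In the IGF axis 5 of 17 tested members were higher and 8 lower, with a median of -0.19 (17 listed). Igf2, a growth factor of fetal and neonatal cartilage, had 262, 237 and 217 FPKM in treated and 811, 729 and 787 FPKM in untreated co-cultures (-1.70 ± 0.077), and Igf1, an anabolic factor of cartilage, fell by 0.93. Of their binding proteins, Igfbp5 fell by 1.94 and Igfbp7 rose by 1.34. Mest, an imprinted gene of mesoderm, had 41.1, 28.6 and 25.2 FPKM in treated and 377, 309 and 350.3 FPKM in untreated co-cultures, a fall of 3.43 ± 0.14. In the FGF and EGF-receptor list 8 of 19 tested members were higher and 5 lower, with a median of 0.10 (22 listed). Fgf7, a ligand of epithelial FGFR2 known as keratinocyte growth factor, had 239.8, 231 and 237 FPKM in treated and 53.6, 53.2 and 56.0 FPKM in untreated co-cultures (2.10 ± 0.049). The EGF-receptor ligand Ereg rose by 2.66, Errfi1, a feedback inhibitor of that receptor, by 1.46, and the receptor genes Fgfr2 and Fgfr3 fell by 1.10 and 0.60.

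Genes known to be induced by low oxygen, glycolytic enzymes included, rose as a group; 29 of 31 tested members were higher and 0 lower, with a median of 0.56 (32 listed). Egln3, a prolyl hydroxylase that marks HIF proteins for degradation, had 41.1, 38.6 and 38.6 FPKM in treated and 8.02, 6.71 and 9.53 FPKM in untreated co-cultures (2.16 ± 0.097). Vegfa, the vascular growth factor, had 171.6, 168 and 162 FPKM in treated and 57.2, 59.6 and 64.0 FPKM in untreated co-cultures (1.46 ± 0.074), and the glucose transporter gene Slc2a1 had 121, 124 and 125 FPKM in treated and 57.3, 57.8 and 64.5 FPKM in untreated co-cultures (1.03 ± 0.061). All 3 genes were called higher (adjusted p at most 2.3e-12, limma with Benjamini-Hochberg). Ankrd37 and Pfkfb4 were not called.

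Oxidant and metal defence genes rose as well. Of NRF2 and antioxidant genes 23 of 25 tested members were higher and 1 lower, with a median of 0.44 (26 listed). Sod3, the secreted superoxide dismutase, rose by 2.04, the cystine importer gene Slc7a11 by 1.40, and Hmox1, which degrades haem, and Nqo1, a quinone reductase, by 0.96 and 0.96. The member that fell was the glutathione transferase Gsta4, with 22.6, 21.0 and 25.2 FPKM in treated and 28.6, 28.7 and 29.6 FPKM in untreated co-cultures (-0.33 ± 0.078). Of metallothionein, zinc and iron genes 7 of 12 tested members were higher and 1 lower, with a median of 0.54 (13 listed). The zinc-binding metallothionein gene Mt2 had 627, 656 and 777 FPKM in treated and 101, 81.0 and 104 FPKM in untreated co-cultures (2.84 ± 0.091), and Fth1, the heavy chain of the iron store ferritin, had 3282, 3469 and 3664 FPKM in treated and 1046, 1067 and 1078 FPKM in untreated co-cultures (1.70 ± 0.074). Slc40a1, the iron exporter ferroportin, fell by 1.29.

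Cell cycle genes fell by small amounts. Of DNA replication genes 1 of 24 tested members were higher and 20 lower, with a median of -0.46 (24 listed), and of mitosis genes 0 of 24 tested members were higher and 22 lower, with a median of -0.43 (24 listed). Mcm5, part of the replicative helicase, averaged 19.7 ± 0.61 FPKM in treated and 31.0 ± 0.38 FPKM in untreated co-cultures. The mitotic kinesin Kif11 and the proliferation antigen Mki67 fell by 0.69 and 0.64. Of p53 target genes 15 of 22 tested members were higher and 3 lower, with a median of 0.33 (22 listed). Cdkn1a, the cell cycle inhibitor p21, averaged 303 ± 11.2 FPKM in treated and 141 ± 4.34 FPKM in untreated co-cultures (1.10 ± 0.079), while Perp, a membrane protein of cell junctions, fell by 1.65. Of cholesterol synthesis genes 1 of 24 tested members were higher and 20 lower, with a median of -0.30 (24 listed), with Hmgcs1, HMG-CoA synthase, at -0.57.

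The size of the IL-1β effect at 72 h was then compared between co-culture and normal culture. The difference (co-culture effect minus normal-culture effect) was called positive for 205 genes (1.68% of those tested) and negative for 174 (1.43%), 3.11% in all. It uses the 6 co-culture libraries described above and 6 normal-culture libraries. These counts depended on the fit: with the 4 compared groups fitted alone they were 2 and 10. The treated normal cultures at 72 h had the largest spread of the 8 groups (residual SD 0.168), and their replicates 1, 2 and 3 had fitted library weights of 0.145, 4.61 and 0.198. Without replicate 1, 2 or 3 of this group the counts were 345 and 238, 697 and 470, and 251 and 200, and without treated co-culture replicate 3 they were 619 and 378. The calls of the 12 genes given below held when any one treated normal-culture library was left out. Of the 12 called differences given below those of Egln3, Ndufa4l2, Slc2a1, Stc2, Prg4 and Slc1a3 kept an adjusted p under 0.05 in that fit, and the others had adjusted p = 0.0573 to 0.201 (limma with Benjamini-Hochberg).

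The hypoxia-induced genes responded less in co-culture. Of 31 tested members 22 had a smaller effect in co-culture and 0 a larger one, with a median difference of -0.50; with the compared groups fitted alone 5 were called. The effects themselves had medians of 0.56 in co-culture (29 higher) and 1.08 in normal culture (30 higher, where 23.1% of all tested genes were). Egln3 averaged 39.4 ± 1.44 FPKM in treated co-cultures and 8.09 ± 1.41 FPKM in untreated co-cultures, and 42.1 ± 6.44 FPKM in treated normal cultures and 3.27 ± 0.53 FPKM in untreated normal cultures (SD, n = 3). Its effects were 2.16 in co-culture and 3.33 in normal culture, a difference of -1.17 ± 0.14 (adjusted p = 0.000107, limma with Benjamini-Hochberg). The treated groups differed by -0.08 and the untreated groups by 1.08, co-culture minus normal culture, so the untreated co-cultures already had more Egln3 RNA than the untreated normal cultures. Over the 31 members the median of these differences was -0.14 between the treated and 0.36 between the untreated groups. Slc2a1 differed by -0.66 ± 0.086, Car9, a carbonic anhydrase, by -1.18 ± 0.17, Ndufa4l2, a mitochondrial protein gene, by -0.93 ± 0.13, Bnip3, which acts in mitophagy, by -0.67 ± 0.12, and Stc2, a secreted glycoprotein of the IGF list, by -0.71 ± 0.10. Mt2 also rose less in co-culture (-0.65 ± 0.13). The direction was shared by other lists. Of immediate early and ERK feedback genes 7 of 28 had a negative difference and 0 a positive one (median -0.24). For NRF2 and antioxidant genes these were 5 of 25 and 0 (median -0.15), against 1.43% negative of all tested genes. With the compared groups fitted alone 0 of either list had a negative call. Mitosis genes went the other way, with 2 of 24 positive and 0 negative.

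Other genes responded more in co-culture or fell less. Saa3 had an effect of 11.79 in co-culture and 10.45 in normal culture, a difference of 1.34 ± 0.26 (adjusted p = 0.00894, limma with Benjamini-Hochberg). Its treated levels averaged 6725 ± 980.1 FPKM in co-culture and 7439 ± 887 FPKM in normal culture. The untreated levels were 0.88 ± 0.14 FPKM in co-culture and 4.62 ± 2.35 FPKM in normal culture, so most of the difference on this scale lay between the untreated groups (-1.49, against -0.15 between the treated). Prg4 averaged 90.7 ± 4.88 FPKM in treated and 32.4 ± 0.99 FPKM in untreated co-cultures, and 103 ± 1.21 FPKM in treated and 50.5 ± 1.02 FPKM in untreated normal cultures. Its rise was larger in co-culture by 0.45 ± 0.069 (adjusted p = 0.0016, limma with Benjamini-Hochberg), and its level was lower in co-culture in both the treated and the untreated group. Mest, Mme, a membrane metalloprotease, and Slc1a3, a glutamate transporter, fell in both cultures and less in co-culture, by 0.85 ± 0.20, 0.75 ± 0.12 and 0.58 ± 0.083. The call for Mest was lost without untreated normal-culture replicate 1, untreated co-culture replicate 2 or 3, or treated co-culture replicate 1 (adjusted p = 0.0577 to 0.0628, limma with Benjamini-Hochberg).

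For 6 other core genes, inflammatory and matrix ones, no difference between the cultures was called. Lcn2 differed by 0.33 ± 0.17, Mmp13 by -0.32 ± 0.20, Il6 by 0.02 ± 0.14, Col2a1 by 0.03 ± 0.073, Acan by 0.00 ± 0.18 and Sox9 by -0.12 ± 0.12 (adjusted p between 0.269 and 0.996, limma with Benjamini-Hochberg).

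**Figure D4:**
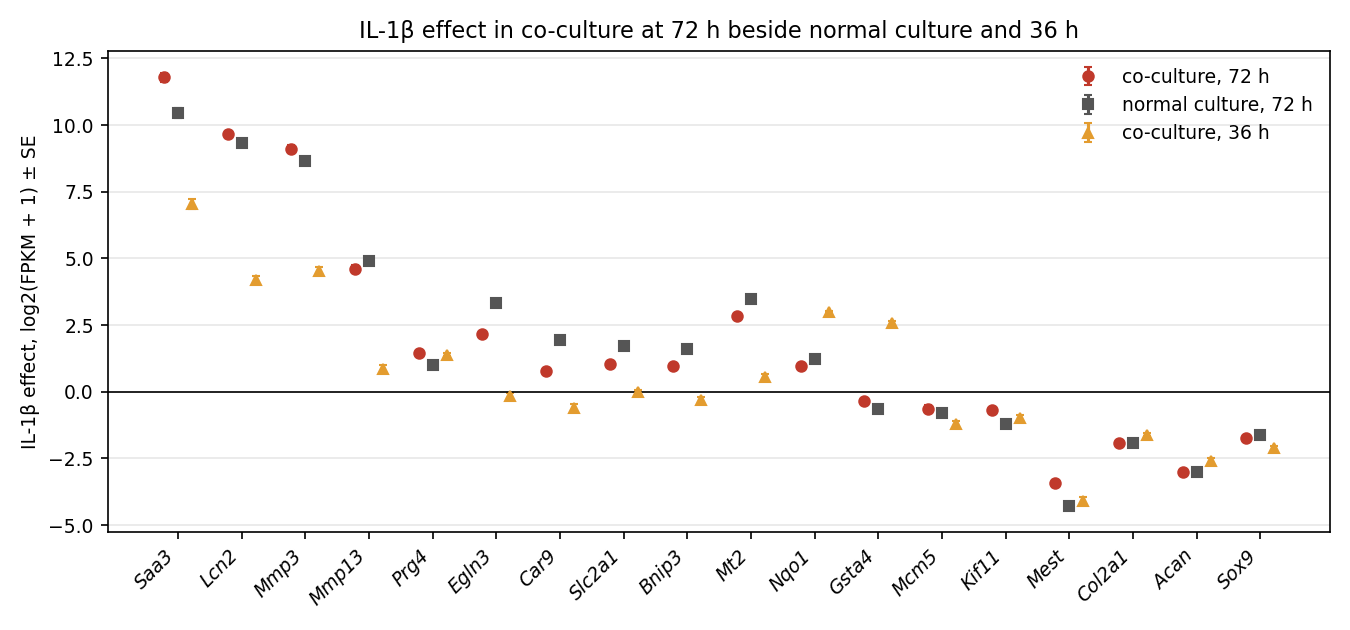
IL-1β effect ± SE, as a difference of log2(FPKM + 1), for 18 genes in co-culture at 72 h, normal culture at 72 h and co-culture at 36 h (n = 3 libraries per group). Egln3 shows 2.16, 3.33 and -0.16 in these 3 comparisons, and Acan -3.01, -3.01 and -2.61.

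The same effect was compared between 72 h and 36 h in co-culture. The difference (72 h minus 36 h) was positive for 1714 genes (14.1%) and negative for 1799 (14.8%), 28.8% of the tested genes in all. Among the largest positive differences were those of inflammatory genes and of Mmp3 and Mmp13. Of 15 tested matrix metalloproteinases 2 had a more positive effect at 72 h and 5 a more negative one (median -0.12). Lcn2 averaged 2164 ± 199.8 FPKM in treated and 1.73 ± 0.61 FPKM in untreated co-cultures at 72 h, and 2752 ± 48.2 FPKM in treated and 147 ± 1.32 FPKM in untreated co-cultures at 36 h. The difference of its effects was 5.44 ± 0.17 (adjusted p = 5.21e-16, limma with Benjamini-Hochberg). Of it, -0.35 lay between the treated groups and -5.79 between the untreated groups, 72 h minus 36 h. The larger part of the difference thus came from the untreated co-cultures, whose Lcn2 level was far lower at 72 h than at 36 h. The untreated normal cultures, which are other libraries, also had less Lcn2 at 72 h (2.58 ± 0.43 FPKM) than at 36 h (175 ± 14.3 FPKM). Whether the labels or the state of the untreated cultures at 36 h account for these levels was not tested, and every difference between the times includes them.

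The untreated levels of other members were also lower at 72 h. Saa3 averaged 0.88 ± 0.14 FPKM in untreated co-cultures at 72 h and 56.3 ± 6.70 FPKM at 36 h, Mmp3 1.28 ± 0.25 FPKM at 72 h and 108 ± 4.01 FPKM at 36 h, and Mmp13 11.2 ± 1.95 FPKM at 72 h and 233 ± 8.20 FPKM at 36 h. In the treated co-cultures Saa3 averaged 6725 ± 980.1 FPKM at 72 h and 7576 ± 45.1 FPKM at 36 h, Mmp3 1249 ± 97.5 FPKM at 72 h and 2493 ± 103 FPKM at 36 h, and Mmp13 293 ± 10.2 FPKM at 72 h and 428 ± 43.9 FPKM at 36 h. The effects were larger at 72 h by 4.74 ± 0.26, 4.58 ± 0.21 and 3.73 ± 0.20, and that of Il6 by 3.77 ± 0.14. Hp and Steap4, a metalloreductase, also had larger effects at 72 h (2.98 ± 0.16 and 3.08 ± 0.19). Penk, which encodes enkephalin precursors, was not called at 72 h (-0.25) and was lowered at 36 h (-3.06), a difference of 2.81 ± 0.23.

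**Figure D5:**
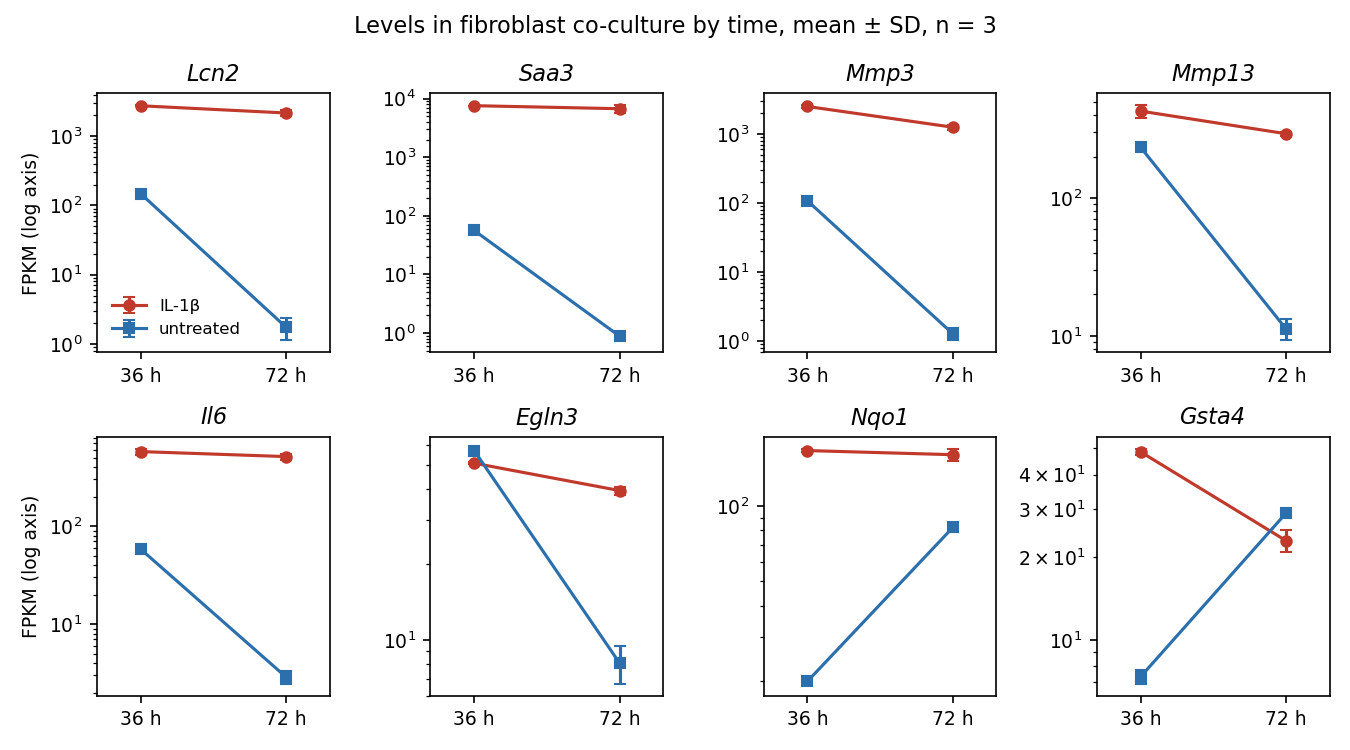
Mean FPKM ± SD (n = 3) on a log axis in treated and untreated co-cultures at 36 h and 72 h for 8 genes. For Lcn2 the untreated mean is 147 FPKM at 36 h and 1.73 FPKM at 72 h, while the treated means are 2752 and 2164 FPKM.

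Gene groups also differed between the times, and so did markers of other cells. Of 12 tested skeletal muscle markers 10 had a more positive effect at 72 h and 0 a more negative one (median 0.74). Their summed level at 72 h was 123.5 to 162.3 FPKM in treated and 68.75 to 80.56 FPKM in untreated co-cultures, and at 36 h 290.1 to 310.6 FPKM in treated and 288 to 328.2 FPKM in untreated co-cultures. The 3 tested neutrophil markers also had a more positive effect at 72 h (median 1.21), with sums at 72 h of 39.56 to 49.65 FPKM in treated and 1.74 to 2.3 FPKM in untreated co-cultures, and at 36 h of 23.39 to 25.17 FPKM in treated and 1.7 to 2.52 FPKM in untreated co-cultures. The part of these cells in the differences between the times was not tested, and the filter limit given above for the neutrophil markers holds here too. Of hypoxia-induced genes 3 rose and 20 fell at 36 h (median -0.19, against 23.4% and 35.3% of all tested genes), and 30 of 31 had a more positive effect at 72 h. Egln3 had effects of 2.16 at 72 h and -0.16 at 36 h (2.33 ± 0.14), with 39.4 ± 1.44 FPKM in treated and 8.09 ± 1.41 FPKM in untreated co-cultures at 72 h and 50.7 ± 0.33 FPKM in treated and 56.9 ± 0.95 FPKM in untreated co-cultures at 36 h. NRF2 and antioxidant genes went the other way, with 25 of 25 higher at 36 h (median 1.08) and 17 with a smaller effect at 72 h. Nqo1 rose by 0.96 at 72 h and 3.00 at 36 h (-2.05 ± 0.062), and Gsta4 fell at 72 h and rose by 2.57 at 36 h (-2.89 ± 0.11). The untreated levels of Nqo1 were 82.2 ± 0.43 FPKM at 72 h and 19.9 ± 0.46 FPKM at 36 h, and the treated levels 160.4 ± 9.02 FPKM at 72 h and 167 ± 2.13 FPKM at 36 h. Ass1, which recycles citrulline to arginine, and Klk10, a secreted serine protease, differed by -1.84 ± 0.076 and -2.27 ± 0.17.

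ATF4 and amino acid stress genes were lowered in fewer cases at 72 h, with 12 of 24 lower at 72 h and 20 lower at 36 h, and 19 with a more positive effect at 72 h. Of DNA replication genes 15 of 24 had a more positive effect at 72 h, and of p53 target genes 15 of 22 had a more negative effect at 72 h. Of cholesterol synthesis genes 14 of 24 also had a more negative effect at 72 h. All 7 cartilage collagens fell at both times, and of 15 tested noncollagenous cartilage matrix genes 10 fell and 3 rose at 72 h and 12 fell and 2 rose at 36 h. Col2a1 changed by -1.91 at 72 h and -1.61 at 36 h, Comp by -2.48 at 72 h and -2.92 at 36 h, and Sox9 by -1.74 at 72 h and -2.12 at 36 h.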

How the data were processed

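Poly(A) RNA of primary chondrocytes was sequenced in 24 libraries, 8 groups of 3. The deposited table holds FPKM for 17094 genes, computed by the authors on genome build GRCm38, per the submitters' processing notes. Its aligner, counting tool and annotation are not given in the sources used here. Reads shared by near-identical genes could have been split. Read counts were not analysed here, and whole reads could not be recovered: 8.69% of low values lay within 0.05 of a whole step, against 10% by chance. Counting intervals are therefore not given.

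From the deposited values, log2(FPKM + 1) of the 12178 genes with at least 1 FPKM in at least 3 libraries was fitted with limma 3.58.1 in R 4.3.3, as 8 group means with a trended prior and 16 residual degrees of freedom, two-sided. The 3 comparisons were the IL-1β effect in co-culture at 72 h, its difference from the effect in normal culture at 72 h and its difference from the effect in co-culture at 36 h. Both differences contain the co-culture libraries of 72 h, so the 3 comparisons are not independent. Calls were made at a Benjamini-Hochberg adjusted p under 0.05. The fit was tested on simulated data. Promoter windows came from RefSeq tables and figures from matplotlib 3.10.9 under Python 3.11.

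Named genes were 20 core genes, the 15 largest rises and 15 largest falls among called genes without overlap and with a mean of at least 5 FPKM, the 8 most positive and 8 most negative genes of each difference, and up to 5 called members in each direction and 3 uncalled members of each list, of which the text prints a selection. Genes, lists and comparisons were chosen with earlier results of these data known. Alternatives were log2(FPKM + 0.1), no filter, a filter at 5 FPKM, TPM and median-of-ratios scaling, library weights, the compared groups alone, the replicate number as a block, and leaving out each library.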

Additional observations from a re-analysis of the deposited data

Results flagged for a closer look

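The IL-1β effect at 72 h differed between co-culture and normal culture, by the test of the difference itself (limma with Benjamini-Hochberg), for 12 named genes, and each difference below is the co-culture effect minus the normal-culture effect in log2(FPKM + 1). It was negative for Egln3 (-1.17), Car9 (-1.18), Ndufa4l2 (-0.93), Stc2 (-0.71), Bnip3 (-0.67), Slc2a1 (-0.66) and Mt2 (-0.65), all of which rose in both cultures. It was positive for Saa3 (1.34) and Prg4 (0.45), which rose in both, and for Mest (0.85), Mme (0.75) and Slc1a3 (0.58), which fell in both. With the compared groups fitted alone, Saa3, Mest, Mt2, Bnip3, Car9 and Mme were no longer called (adjusted p = 0.0573 to 0.201, limma with Benjamini-Hochberg). Genes were named partly for being the most extreme called ones of this difference, so their calls are not independent of that choice. Over all genes with a called difference, the larger part lay between the untreated groups for 54 of 205 positive (26.3%) and 86 of 174 negative ones (49.4%).

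In co-culture the effect differed between 72 h and 36 h for 13 named genes, given as 72 h minus 36 h. It was more positive at 72 h for Lcn2 (5.44), Saa3 (4.74), Mmp3 (4.58), Il6 (3.77), Mmp13 (3.73), Steap4 (3.08), Hp (2.98), Penk (2.81) and Egln3 (2.33). It was more negative at 72 h for Gsta4 (-2.89), Klk10 (-2.27), Nqo1 (-2.05) and Ass1 (-1.84). Here too genes were named partly for being the most extreme called ones of the difference. The larger part of the difference lay between the untreated groups for 745 of 1714 positive (43.5%) and 828 of 1799 negative differences (46%).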

How the results depend on the processing

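The counts of genes raised and lowered by IL-1β in co-culture at 72 h stayed within 1.5 times of 2249 and 3729 under every alternative run, with 2011 to 2156 higher and 3248 to 3585 lower when single libraries were left out. The counts of changes of at least 2-fold, 287 higher and 179 lower, became 466 and 342 with log2(FPKM + 0.1), and 293 were lower with TPM scaling; without single libraries they were 280 to 294 and 167 to 188. The 1714 positive and 1799 negative differences between 72 h and 36 h were 1436 to 1656 and 1562 to 1756 without single libraries, and no alternative moved them by over 1.5 times. The 205 positive and 174 negative differences between co-culture and normal culture at 72 h depended on the settings. They were 110 and 262 with median-of-ratios scaling, 860 and 560 with weights per library, 2 and 10 with the compared groups only, and 97 were negative with TPM scaling. Without single libraries they were 52 to 697 and 55 to 470, and without replicate 3 of both treated groups at 72 h, an alternative added after the data were seen, 460 and 273. The cause of these shifts was not tested.

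Same-numbered treated and untreated co-cultures at 72 h deviated together with correlations of 0.031, 0.167 and 0.251, and treated replicate 1 correlated best with untreated replicate 2 (0.132). For treated co-cultures and treated normal cultures of the same number the correlations were 0.364, 0.179 and 0.577. For treated and untreated normal cultures they were 0.123, 0.19 and 0.032. As not every pair exceeded 0.1, the numbers were not taken to pair the libraries. With a replicate block fitted across the 24 libraries, 2246 genes were higher and 3743 lower with IL-1β; with the block in the compared groups only, these were 2236 and 3698, and the difference between cultures gave 4 and 16, with Saa3, Bnip3 and Mt2 no longer called (adjusted p = 0.0663 to 0.0963, limma with Benjamini-Hochberg). Of 158 named genes 2 lost and 3 gained a call for the IL-1β effect under some alternative, none changed direction past the threshold, and the 13 named differences between times kept their calls. Read depth is unknown, so small changes of genes near 1 FPKM cannot be set against counting error.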

Other observations

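Interferon-stimulated genes were mostly not called in co-culture at 72 h; 1 of 20 tested members were higher and 6 lower, with a median of -0.08 (24 listed). Irf9, an interferon regulatory factor, averaged 5.86 ± 0.38 FPKM in treated and 9.22 ± 0.32 FPKM in untreated co-cultures (SD, n = 3) and fell by 0.58. The member that rose was the guanylate-binding protein gene Gbp2 (1.55 ± 0.088). Of MHC class I and peptide loading genes 5 of 16 tested members were higher and 4 lower, with a median of 0.03 (17 listed). The share called in either direction was near the 49.1% of all tested genes. The 5 that rose included the classical heavy chain H2-K1 (0.66) and the nonclassical H2-T23 (1.10), whose near-identical relatives could share reads, and the 4 that fell included the peptide transporter gene Tap2 (-0.54).

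Of myofibroblast and contractile genes 11 of 20 tested members were higher and 4 lower, with a median of 0.26 (20 listed), but without untreated replicate 1 only 2 were called lower. The smooth muscle genes Cnn1, calponin, and Myl9, a myosin light chain, rose by 0.55 and 0.53, and the nonmuscle myosin gene Myh9 fell by 0.25. The skeletal muscle marker sums that rose in the same libraries are given above, and their part was not tested. Of adhesion molecules 6 of 20 tested members were higher and 9 lower, with a median of -0.09 (23 listed). The fibronectin receptor subunit gene Itga5 rose by 0.90 and the leukocyte ligands Vcam1 and Icam1 by 0.65 and 0.52, while the laminin receptor subunit gene Itga6 fell to 3.52 ± 0.66 FPKM in treated co-cultures, against 16.3 ± 0.24 FPKM in untreated co-cultures. Of immediate early and ERK feedback genes 15 of 28 tested members were higher and 5 lower, with a median of 0.25 (28 listed), and with TPM scaling 13 were higher and 9 lower. The AP-1 subunit gene Fosl1 rose by 1.60 and Ier3 by 2.47, and Fos fell by 0.45. Proteasome subunits and nuclear-encoded respiratory chain genes were mostly not called, with 3 of 25 and 0 of 29 higher and 0 and 3 lower; with TPM scaling 2 proteasome genes were higher and 3 lower, and 15 respiratory chain genes were lower. Endoplasmic reticulum chaperone and XBP1 target genes had 4 higher and 5 lower of 21, with 2 and 7 under TPM scaling and 6 and 4 under median-of-ratios scaling. Lysosomal protease genes had 4 higher and 6 lower of 18, shares near the 18.5% and 30.6% of all tested genes.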
